A study of Neotoma stephensi and Rattus norvegicus with 6 samples.

Results

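The mitochondrially encoded respiratory chain genes are described here as 10 members, chosen by gene symbol: mt-Nd1, mt-Nd2, mt-Nd4, mt-Nd5, mt-Nd6, mt-Cytb, mt-Co1, mt-Co2, mt-Co3 and mt-Atp6. Of these, 9 were listed among the 15481 genes of the count files and all 9 passed the filter on low counts, which kept 12603 genes. mt-Nd6 had no row and was not analysed here. Of the other 3 protein-coding genes of the mitochondrial genome, mt-Nd3 and mt-Nd4l were listed and are given beside the members, whereas mt-Atp8 had no row and was not analysed here. The genes are identified by Ensembl mouse identifier, since reads of both species were counted against mouse transcripts, and the files give no positions in a genome.

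Polyadenylated RNA of the foregut (the fornix ventricularis, the upper, squamous-lined chamber of the stomach) was sequenced from 3 Stephens' woodrats (Neotoma stephensi) and 3 Sprague Dawley lab rats, to compare a herbivore that houses microbes in its foregut with a rodent that does not rely on them. The woodrats were wild-caught and ate juniper foliage until they were dissected, and the lab rats were bought from a breeder and kept on laboratory chow. All 6 animals were females and none received another treatment. Species, diet, origin, time in captivity and evolutionary distance to the mouse reference differed together between the groups and cannot be told apart. In such bulk tissue, fewer cells of a type and less RNA per cell cannot be told apart either.

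Each library held between 5439642 and 7932637 counted reads. Values are given as CPM (reads of a gene scaled to a fixed library size) after TMM normalisation, or as a percentage of reads. Genes were called different between species at an FDR below 0.01 in edgeR's quasi-likelihood test, with n = 3 animals per species. The labelled tissue carried squamous epithelial RNA. The 15 squamous markers summed to 24548 to 55266 CPM in the woodrats and 30705 to 52398 CPM in the lab rats, while 9 gastric gland markers summed to at most 13.5 CPM in any library. Of that gland list, the defining proton pump subunit Atp4b, intrinsic factor (listed as Gif and Cblif) and Tff1 had no row. A floor of 3 counts corresponded to 0.355 to 0.586 CPM, far under every value of a member.

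The mitochondrial genome encodes core subunits of the respiratory chain and of ATP synthase, and every other subunit is encoded in the nucleus and imported. Its genes are transcribed as long precursor RNAs that span many genes and are then cut at the tRNAs lying between them, so that levels of the individual mRNAs depend largely on processing and stability. mt-Nd6 is encoded on the opposite strand from the rest, and its mRNA is known to carry little or no poly(A) tail. mt-Nd4l overlaps the start of mt-Nd4 on one shared mRNA, and mt-Atp8 does the same with mt-Atp6, so reads in the overlaps may go to either gene and the counts of those genes are uncertain to that extent. Smooth muscle, which forms the wall of the stomach, and squamous epithelium both hold mitochondria.

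The 9 members together took 11.4%, 9.11% and 6.14% of the counted reads of woodrats 1, 2 and 3. In lab rats 1, 2 and 3 they took 5.49%, 5.78% and 5.53%. On this scale the lowest woodrat was above the highest lab rat, but the woodrats were spread widely while the lab rats were nearly alike. As TMM-normalised CPM the members summed to 91624 ± 34995 in the woodrats and 55998 ± 8933 in the lab rats (SD, n = 3 each). On that scale the species overlapped, with lab rat 3 above woodrat 3. As a percentage of counted reads, the values were as follows. The woodrats averaged 8.90% ± 2.65 and the lab rats 5.60% ± 0.159 (SD, n = 3 each), a ratio of 1.59 and a difference of 3.29 percentage points. Counting error was small beside this, with a Wilson 95% half-width of at most 0.0261 percentage points per library. Without woodrat 1, the animal with the highest share, the difference was 2.03 percentage points. Most of the difference lay in mt-Co1, which took 45.0% of the members' reads in woodrats and 28.6% in lab rats on average. Without mt-Co1 the woodrats had 6.33%, 4.83% and 3.48% and the lab rats 3.84%, 3.91% and 4.23%. These ranges overlapped, and the difference of the means was 0.883 percentage points.

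The share moved with smooth muscle markers among the woodrats. The 10 smooth muscle markers in the files summed to 128648, 62490 and 42043 CPM in woodrats 1, 2 and 3 and to 11403, 19235 and 20588 CPM in lab rats 1, 2 and 3. All 10 had a positive log2 fold change and 4 of them (Synpo2, Synm, Lmod1 and Mylk) passed the test, with a median log2 fold change of 2.55 against 0.03 over all 12603 genes. Acta2 and Actg2, defining markers of that cell type, had no row. The squamous markers ran the other way, with 24548, 45901 and 55266 CPM in woodrats 1, 2 and 3. Among the lab rats, the members' share was 5.49% in the library with the lowest smooth muscle sum and 5.53% in the one with the highest. The part of the tissue's makeup in the share of mitochondrial reads was not tested.

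**Figure D1:**
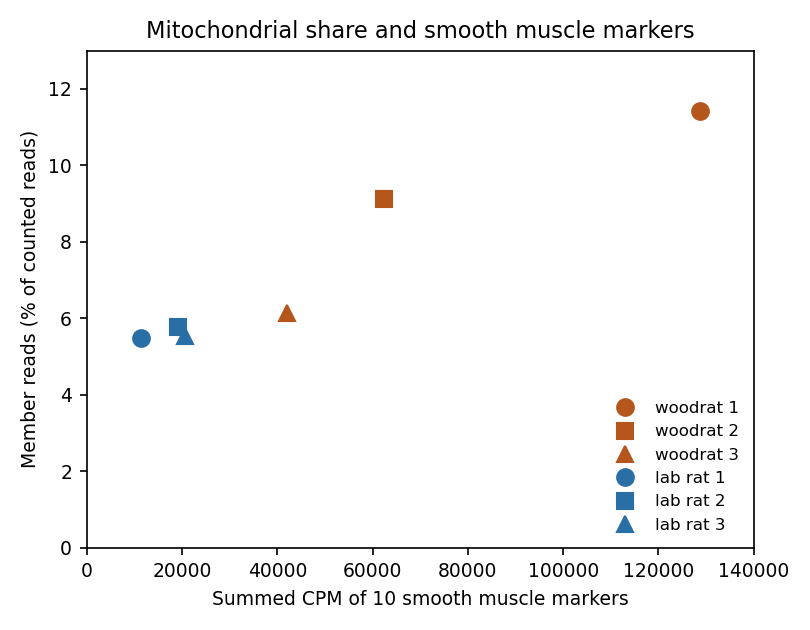
Percentage of counted reads in the 9 members (vertical axis) against the summed CPM of the 10 smooth muscle markers (horizontal axis), 1 point per animal. The 3 woodrats run from 6.14% at 42043 CPM to 11.4% at 128648 CPM, while the 3 lab rats lie between 5.49% and 5.78%.

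Gene by gene, the members did not move as one. mt-Nd4 and mt-Nd5 were higher in woodrats, mt-Nd2 was lower, and the other 6 did not pass the test. The 2 members called higher (22.2% of 9) stand against 10.3% of all genes tested that were called higher in woodrats, and the 1 called lower (11.1%) against 9.71% called lower. At an unadjusted p under 0.05, 3 members were higher and 1 was lower, and DESeq2 called 3 higher and 1 lower. Member CPM of every woodrat lay above every lab rat for 4 genes (mt-Nd1, mt-Nd4, mt-Nd5 and mt-Co1), a pattern that 28.8% of all genes showed. It lay below every lab rat for 2 genes (mt-Nd2 and mt-Atp6), as it did for 27.4% of all genes. The species overlapped in mt-Cytb, mt-Co2 and mt-Co3. The median log2 fold change of the members was 0.59.

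**Figure D2:**
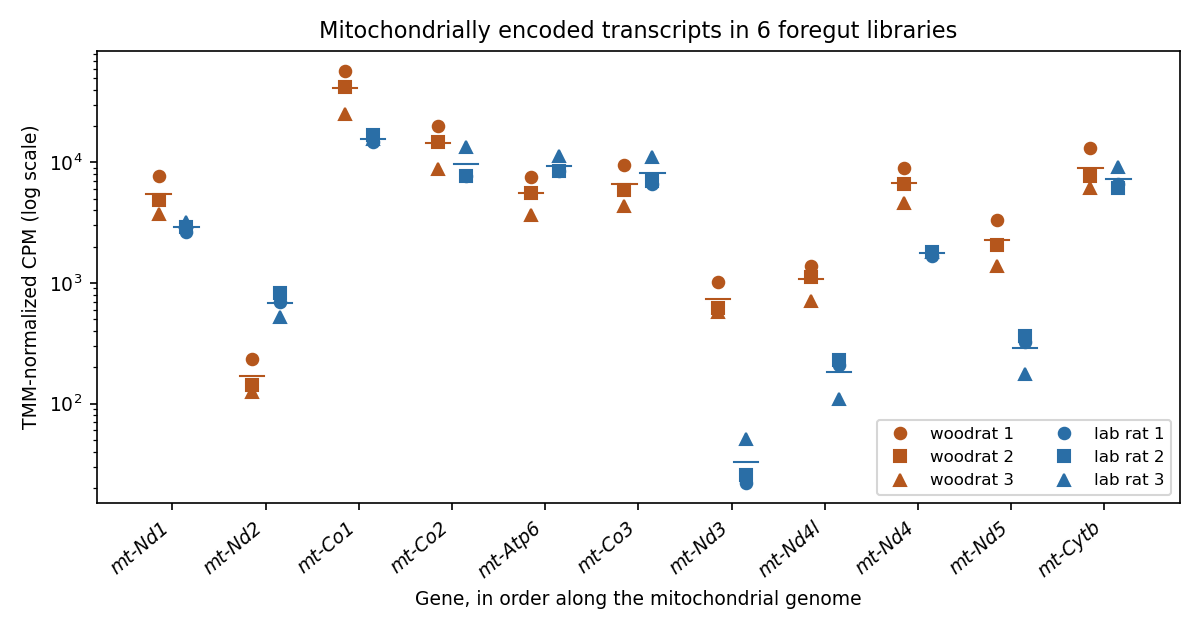
TMM-normalised CPM (log axis) of the 11 mitochondrial genes in the files, in the order of the mitochondrial genome, with 1 point per animal, 1 colour per species and a bar at each species mean. Woodrats lie above lab rats in mt-Nd1, in mt-Co1 and from mt-Nd3 to mt-Nd5, below them in mt-Nd2 and mt-Atp6, and among them in mt-Co2, mt-Co3 and mt-Cytb.

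Complex I, the NADH dehydrogenase that takes electrons from NADH, held the members with the largest changes in both directions. mt-Nd5 (ENSMUSG00000064367.1), one of its proton-pumping membrane subunits, was measured at 3353, 2084 and 1385 CPM in woodrats 1, 2 and 3 and at 321, 364 and 177 CPM in lab rats 1, 2 and 3. The lowest woodrat was several times above the highest lab rat. The means were 2274 ± 998 and 287 ± 98.1 CPM (SD, n = 3 each), a log2 fold change of 2.98 with an SE of 0.46 and an FDR of 0.00227, equal to a 7.91-fold higher level. The call was lost only when lab rat 1 was left out, at an FDR of 0.0109.

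mt-Nd4 (ENSMUSG00000064363.1), another proton-pumping subunit, was measured at 8982, 6582 and 4577 CPM in the woodrats and at 1690, 1794 and 1799 CPM in the lab rats. The lab rats were nearly equal and every woodrat exceeded them. The means were 6714 ± 2205 and 1761 ± 61.6 CPM, a log2 fold change of 1.93 (SE 0.41, FDR 0.00714, 3.81-fold). This call lay close to the threshold, and its FDR was 0.0146 without woodrat 1, 0.0323 without woodrat 2, and 0.0378, 0.0334 and 0.0170 without lab rats 1, 2 and 3.

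mt-Nd2 (ENSMUSG00000064345.1), an antiporter-like subunit of the same membrane arm, ran the other way. It was measured at 236, 144 and 124 CPM in the woodrats and at 697, 823 and 525 CPM in the lab rats, with every woodrat under every lab rat. The means were 168 ± 59.7 and 682 ± 149 CPM, a log2 fold change of -2.02 (SE 0.35, FDR 0.00315), so that woodrats were 4.06-fold lower. The FDR was 0.0194 without woodrat 2, 0.0119 without lab rat 1 and 0.0130 without lab rat 2, and below the threshold without any other animal.

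mt-Nd1 (ENSMUSG00000064341.1), which lies where the membrane arm meets the matrix arm and helps form the quinone site, did not pass the test. It was measured at 7745, 4838 and 3725 CPM in the woodrats and at 2663, 2932 and 3205 CPM in the lab rats. The species did not overlap, but the gap between woodrat 3 and lab rat 3 was small beside the spread of the woodrats, and the log2 fold change was 0.89 (SE 0.41, FDR 0.115).

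The remaining complex I genes in the files, which are not members, both passed the test. mt-Nd3 (ENSMUSG00000064360.1) was measured at 1014, 617 and 575 CPM in the woodrats and at 22.0, 25.6 and 50.5 CPM in the lab rats. Its log2 fold change of 4.49 (SE 0.45, FDR 0.000535) was above that of any member. The lab rat values rest on 177, 155 and 262 reads, few beside those of the members, whose lowest count in any library was 918. mt-Nd4l (ENSMUSG00000065947.3) was measured at 1375, 1129 and 703 CPM in the woodrats and at 207, 232 and 109 CPM in the lab rats, a log2 fold change of 2.55 (SE 0.41, FDR 0.00247). It shares an mRNA with mt-Nd4, and both were higher in woodrats, mt-Nd4l with the larger estimate.

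Complex III, the cytochrome bc1 complex, has 1 mitochondrially encoded subunit, cytochrome b. mt-Cytb (ENSMUSG00000064370.1) was measured at 13172, 7677 and 6162 CPM in the woodrats and at 6666, 6186 and 9186 CPM in the lab rats. The species were interleaved, and the log2 fold change of 0.29 (SE 0.46, FDR 0.643) was smaller than its error. Its sign rested on woodrat 1, since the estimate was -0.086 without that animal.

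Complex IV, cytochrome c oxidase, passes electrons to oxygen, and its 3 mitochondrially encoded subunits form the catalytic core. mt-Co1 (ENSMUSG00000064351.1), which holds the heme and copper centre where oxygen is reduced, was measured at 56982, 42039 and 25016 CPM in the woodrats and at 14885, 16800 and 15563 CPM in the lab rats. Every woodrat was above every lab rat, and woodrats 1 and 3 differed more from each other than woodrat 3 did from the lab rats. The means were 41345 ± 15994 and 15749 ± 971 CPM, with a log2 fold change of 1.39 (SE 0.55, FDR 0.0754), which did not pass the test in edgeR but did in DESeq2 at an adjusted p of 0.00076.

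mt-Co2 (ENSMUSG00000064354.1), which receives electrons from cytochrome c, was measured at 20133, 14658 and 8747 CPM in the woodrats and at 7745, 7695 and 13422 CPM in the lab rats. Lab rat 3 exceeded woodrat 3, and the log2 fold change was 0.59 (SE 0.51, FDR 0.383). mt-Co3 (ENSMUSG00000064358.1), the core subunit without a metal centre, was measured at 9440, 5910 and 4332 CPM in the woodrats and at 6586, 7004 and 11123 CPM in the lab rats, with a log2 fold change of -0.33 (SE 0.47, FDR 0.606). Neither gene separated the species, and the estimates of the 3 subunits of this single enzyme ranged from -0.33 to 1.39.

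Complex V, ATP synthase, makes ATP from the proton gradient, and mt-Atp6 (ENSMUSG00000064357.1) encodes the subunit that forms its proton channel with the ring of c subunits. It was measured at 7583, 5584 and 3662 CPM in the woodrats and at 8489, 8425 and 11228 CPM in the lab rats. The species did not overlap, with woodrats the lower, but the log2 fold change of -0.74 (SE 0.44, FDR 0.213) did not pass the test.

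The study's reads of both species were aligned to mouse transcripts, so the question was asked whether genes of 1 mitochondrial genome gave the same answer. They did not give 1 common difference between species. The estimates ran from -2.02 in mt-Nd2 to 2.98 in mt-Nd5, a spread of 32.1-fold. How far alignment of each species to mouse, transcript length, or the level of each mRNA contributed to the spread was not tested, as no sequence of the 3 species was used here.

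**Figure D3:**
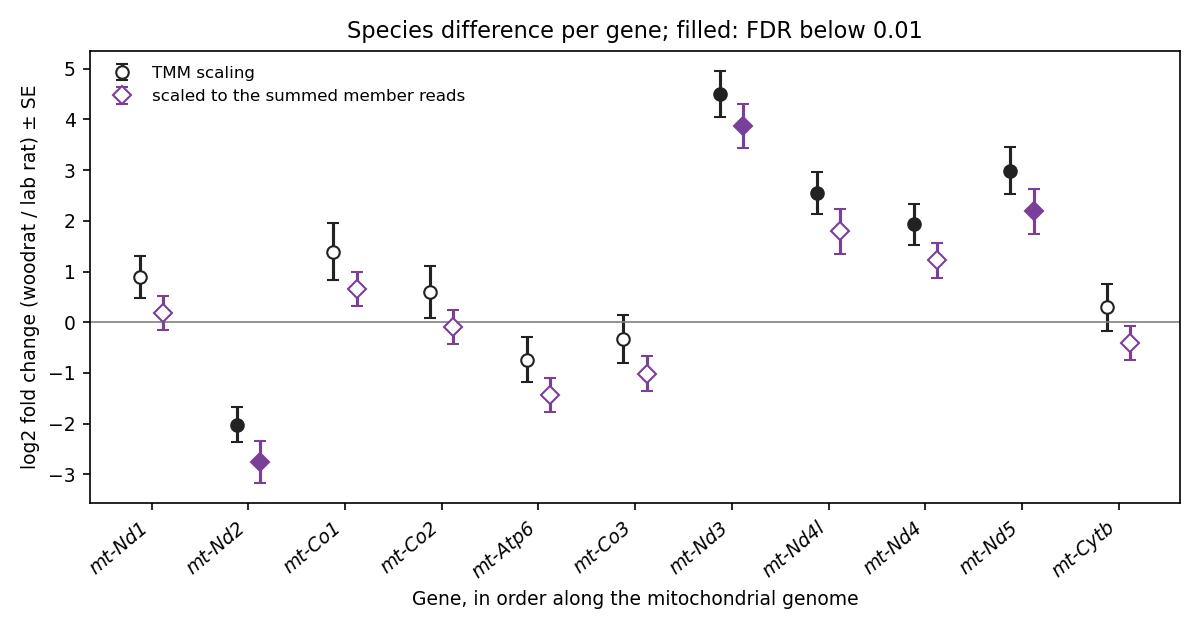
Log2 fold change of woodrats over lab rats with its SE for the 11 mitochondrial genes in the order of the mitochondrial genome, after TMM normalisation and after scaling each library to the summed reads of the 9 members, with filled symbols for an FDR below 0.01. Estimates of the members run from -2.02 in mt-Nd2 to 2.98 in mt-Nd5 after TMM, and the second scaling lowers each of them without changing their order.

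The members were then compared within the mitochondrial reads, by scaling each library to the sum of the 9 members. On this scale the median log2 fold change of all genes tested moved from 0.03 to -0.55, and each value below is relative to the members' sum rather than to the other genes. mt-Nd5 was higher in woodrats (log2 fold change 2.19, SE 0.44, FDR 0.00670) and mt-Nd2 was lower (-2.75, SE 0.42, FDR 0.00189). These were the only calls, 1 in each direction, against 2.47% of all genes called higher and 8.22% called lower on this scale. At an unadjusted p under 0.05, 2 members were higher and 3 were lower. mt-Nd4 (1.22, FDR 0.0262), mt-Atp6 (-1.44, FDR 0.0122) and mt-Co3 (-1.02, FDR 0.0497) lay between the thresholds of 0.01 and 0.05. mt-Co1 (0.65, FDR 0.172), mt-Nd1 (0.18, FDR 0.713), mt-Co2 (-0.10, FDR 0.851) and mt-Cytb (-0.41, FDR 0.389) did not pass either. The call of mt-Nd5 was lost without woodrat 2 (FDR 0.0254) and without lab rats 1, 2 and 3 (0.0240, 0.0191 and 0.0194), and that of mt-Nd2 without woodrat 2 (0.0159). Because mt-Co1 took so much of the sum, a scaling to the sum without it raised the estimate of every member. mt-Co2 turned from -0.10 to 0.29, neither of which passed the test. mt-Cytb moved from -0.41 to -0.031 and mt-Co3 from -1.02 to -0.64 (FDR 0.170). mt-Nd4 (1.59, FDR 0.0105) and mt-Atp6 (-1.06, FDR 0.0373) stayed between the thresholds. mt-Nd5 (2.54, FDR 0.00592) and mt-Nd2 (-2.40, FDR 0.00494) were still called.

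Shares of the members' reads separated the species in 7 of 9 genes. mt-Atp6 took 5.94%, 6.24% and 6.34% of these reads for woodrats 1, 2 and 3 and 17.1%, 16.2% and 17.0% for the lab rats, with little spread in either species. mt-Co1 took 44.6%, 47.0% and 43.3% in the woodrats and 29.9%, 32.3% and 23.5% in the lab rats. These are shares of reads and not per length of transcript, so they compare the species for 1 gene and not 1 gene with another. mt-Nd5 took 2.45% ± 0.156 in woodrats and 0.537% ± 0.236 in lab rats, and mt-Nd4 took 7.44% ± 0.452 and 3.19% ± 0.409 (SD, n = 3 each). The genes with lower shares in woodrats were mt-Nd2, at 0.187% ± 0.0276 against 1.26% ± 0.413, mt-Co3, at 7.17% ± 0.493 against 14.5% ± 1.99, and mt-Cytb, at 9.86% ± 1.12 against 13.1% ± 1.03, besides mt-Atp6. In all, 3 members had higher shares in every woodrat and 4 had lower shares in every woodrat. Shares add up to a fixed total, so the larger mt-Co1 share of woodrats by itself lowers the shares of the others. Scaled to the sum without mt-Co1, mt-Cytb had a log2 fold change of -0.031 (FDR 0.953). Over all genes, reads divided by the members' reads were higher in every woodrat for 12% and lower for 36.4%. Shares of mt-Nd1 and mt-Co2 overlapped, with means of 5.98% and 15.8% in woodrats and 5.28% and 16.9% in lab rats.

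The woodrats differed from each other in the level of the members among the counted reads and hardly in the makeup of the members' reads. Woodrat 1 had the highest CPM of the woodrats in 9 of 9 members and woodrat 3 the lowest in 9 of 9, and woodrat 1 stood 1.61- to 1.93-fold above the mean of the others. The coefficient of variation of CPM over the woodrats had a median of 38.7% over the members, whereas that of the shares had a median of 6.37%. Ratios between members were accordingly steady among woodrats. Over the 36 pairs of members, the SD of the log2 ratio among the 3 woodrats ran from 0.01 (mt-Co1 with mt-Co2) to 0.27, with a median of 0.13.

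The lab rats showed another picture. The median coefficient of variation was 21.9% for CPM and 13.7% for shares, and lab rat 3 stood apart in makeup. Compared with the mean of lab rats 1 and 2, lab rat 3 had 0.516 times the CPM of mt-Nd5, 0.691 times that of mt-Nd2 and 0.499 times that of mt-Nd4l, but 2.12 times that of mt-Nd3, 1.74 times that of mt-Co2, 1.64 times that of mt-Co3 and 1.43 times that of mt-Cytb. mt-Co1 and mt-Nd4 were at 0.982 and 1.03 times. Lab rat 3 also had the lowest TMM factor of all libraries, 0.836, and the lowest level of the smooth muscle genes Synm, Mylk and Synpo2 (57.4, 181 and 145 CPM), although its summed smooth muscle markers were the highest of the lab rats. Whether these values share a source was not tested. Without lab rat 3 the log2 fold changes were 2.73 for mt-Nd5 (FDR 0.00967), 1.95 for mt-Nd4 (FDR 0.0170) and -2.18 for mt-Nd2 (FDR 0.00755), so only the mt-Nd4 call was lost.

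Ratios between 2 members within a library do not depend on library size, normalisation or the amount of mitochondrial RNA. Of the 36 pairs of members, 34 had ratios that did not overlap between the species, the exceptions being mt-Nd1 with mt-Co2 and mt-Cytb with mt-Co2. The median size of the species difference was 1.63 on the log2 scale, against a median SD of 0.13 over woodrats and 0.34 over lab rats, and 27 pairs differed by more than 1. The ratio of mt-Co1 to mt-Atp6 was 4.30-fold higher in woodrats, a log2 difference of 2.11 with SDs of 0.08 and 0.27. The ratio of mt-Nd5 to mt-Atp6 differed 13.4-fold and that of mt-Nd5 to mt-Nd2 differed 32.2-fold. For comparison, 916 pairs of nuclear-encoded subunits of the same complex were taken in the same way, leaving out Cox6b2, which had 0 reads in woodrat 1. Of these pairs, 525 (57.3%) did not overlap, with a median difference of 0.44 and 111 (12.1%) past 1. Within complex I, the largest difference among 630 nuclear pairs was 1.31, while mt-Nd5 and mt-Nd2 differed by 5.01. The largest nuclear difference was 2.44 in complex V and 5.32 in complex IV, the latter above that of any pair of members. That complex IV pair holds Cox6a2, which had only 1, 4 and 6 reads in lab rats 1, 2 and 3. The pairs share genes and are not independent, so these counts are given without a test.

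Nuclear-encoded subunits of the same complexes, which are translated in the cytosol and imported, mostly did not pass the test. Of 82 subunits tested, 1 was called higher in woodrats (1.22%, against the 10.3% of all genes) and 3 were called lower (3.66%, against 9.71%). Their median log2 fold change was -0.34, with 61 of 82 below 0, where the median of all genes was 0.03. This shift moved with lab rat 3, which was the highest lab rat in 80 of the 82 subunits (97.6%, against 40.5% of all genes tested), at a median of 1.90 times the mean of lab rats 1 and 2. Without lab rat 3 the median was 0.0084, 40 of 82 were below 0, and 1 was called higher and 0 lower. Without lab rat 1 the median was -0.54 and without lab rat 2 it was -0.49, and both fits called 0 in either direction. In complex I, none of 36 passed in edgeR or DESeq2, 0 were higher and 8 lower at an unadjusted p under 0.05, and the estimates ran only from -1.04 to 0.30. The mitochondrially encoded subunits of that complex ran from -2.02 to 4.49 with mt-Nd3 included. In complex II, which has no mitochondrially encoded subunit, none of 4 passed in edgeR or DESeq2, and 1 was higher and 0 lower at an unadjusted p under 0.05.

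**Figure D4:**
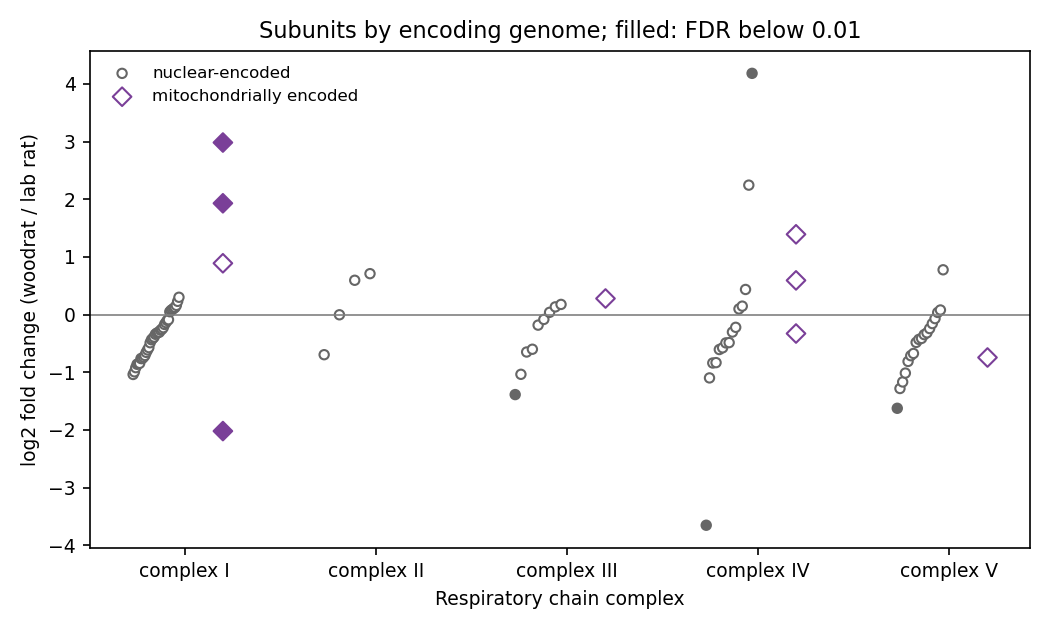
Log2 fold change of woodrats over lab rats for each subunit of the 5 respiratory complexes, with nuclear-encoded subunits as circles beside the 9 members as diamonds and filled symbols for an FDR below 0.01. Nuclear subunits of complex I lie between -1.04 and 0.30, while the members of that complex spread from -2.02 in mt-Nd2 to 2.98 in mt-Nd5.

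In complex III, 1 of 9 nuclear subunits fell, Uqcrc1, a core protein of the bc1 complex, at 156 ± 22.5 CPM in the woodrats and 409 ± 125 CPM in the lab rats (log2 fold change -1.39, FDR 0.00769). In complex IV, 1 of 15 rose and 1 fell. Cox6a2, the isoform of heart and skeletal muscle, had 105, 24 and 85 reads in the woodrats and 1, 4 and 6 in the lab rats (log2 fold change 4.18, FDR 0.00610). Cox6b2, an isoform known from testis, had 0, 3 and 7 reads in the woodrats and 36, 20 and 54 in the lab rats (-3.65, FDR 0.00728). Both are low in this tissue, and their counts are small beside those of the common subunits. The 9 striated muscle markers in the files summed to 495, 268 and 226 CPM in woodrats 1, 2 and 3 and to 69.0, 100 and 107 CPM in the lab rats, with Acta1 and Myh7 not listed. Ckm, the muscle creatine kinase, took most of the woodrat sum, at 330, 210 and 140 CPM against 16.1, 26.3 and 36.4 CPM. Casq1 was also higher in every woodrat, at 38.1, 5.55 and 15.3 CPM against 1.74, 2.81 and 5.20 CPM. Its log2 fold change of 2.61 did not pass the test (FDR 0.0203). In Actn3 and Myl1 the species overlapped. The contractile markers Myh1, Myh2, Myh4, Tnnt3 and Tnnc2 were lower in every woodrat than in every lab rat, and none exceeded 1.30 CPM in a woodrat. The 6 markers tested were evenly divided in sign, with a median log2 fold change of -0.65. The part of striated muscle in Cox6a2 was not tested. In complex V, 1 of 18 fell, Atpif1, the inhibitor of ATP hydrolysis by the enzyme, at 82.2 ± 23.6 and 253 ± 104 CPM (-1.63, FDR 0.00814). None of these 4 calls was kept when any 1 lab rat was left out. Without lab rat 3 the FDR was 0.0124 for Uqcrc1, 0.0210 for Cox6a2, 0.0261 for Cox6b2 and 0.0180 for Atpif1. Over the 6 fits that left out 1 animal, the call was kept in 0 for Uqcrc1, 2 for Cox6a2, 1 for Cox6b2 and 1 for Atpif1.

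A wider list of 175 tested genes, called the machinery below, held genes that maintain, transcribe, process and translate the mitochondrial genome. It also held biogenesis regulators, assembly factors of the complexes and markers of mitochondrial mass. Of the 175, 6 were called higher in woodrats (3.43%, against 10.3% of all genes) and 14 lower (8%, against 9.71%). Their median log2 fold change was -0.34. Lab rat 3 was again the highest lab rat in 139 of the 175 (79.4%), and without it 3 were called higher and 7 lower, with a median of -0.11. Without lab rat 1, and likewise without lab rat 2, 0 were called higher and 5 lower. Of the genes of this list and of the nuclear subunits named here, Mterf1a, Mrps23 and Mrpl15 were called whichever animal was left out, and the call of every other one was lost in at least 1 such fit. Among 26 genes of mitochondrial RNA synthesis and processing, 1 rose (3.85%) and 3 fell (11.5%). Mterf2, a member of the transcription termination factor family, rose from 4.10 ± 1.52 CPM in lab rats to 13.7 ± 0.948 CPM in woodrats (log2 fold change 1.75, FDR 0.00590). Mterf1a, of the same family, was at 4.57 ± 0.599 CPM in the woodrats and 41.7 ± 12.8 CPM in the lab rats (-3.19, FDR 0.000543). Mouse has a near-identical copy of it, Mterf1b, so its counts are uncertain. Fastkd3, of a family of mitochondrial RNA-binding proteins, fell (-2.15, FDR 0.00286), as did Tefm, the elongation factor of the mitochondrial RNA polymerase (-1.53, FDR 0.00871).

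The core regulators did not pass the test. Tfam, which packages and activates mitochondrial DNA, was at 11.4 ± 1.22 CPM in the woodrats and 24.7 ± 5.66 CPM in the lab rats, without overlap (log2 fold change -1.12, FDR 0.0155). Polrmt, the mitochondrial RNA polymerase, stood at -0.20 (FDR 0.648) and its partner Tfb2m at -0.57 (FDR 0.125). Lrpprc, which with Slirp stabilises mitochondrial mRNAs and supports their polyadenylation, was at 115 ± 15.5 and 74.0 ± 10.2 CPM, without overlap (0.63, FDR 0.0572), while Slirp stood at -0.40 (FDR 0.363). Ppargc1a, a coactivator of mitochondrial biogenesis, was counted only 19, 37 and 34 times in the woodrats and 16, 14 and 10 times in the lab rats (1.04, FDR 0.0507). Nrf1, a transcription factor for nuclear respiratory genes, stood at 0.11 (FDR 0.732). The list of 8 biogenesis regulators gave no call in edgeR or DESeq2, and 2 higher and 1 lower at an unadjusted p under 0.05.

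In the other groups of the list, 1 of 11 genes of mitochondrial DNA maintenance fell (9.09%, against 9.71% of all genes). It was Peo1, the mitochondrial DNA helicase (log2 fold change -1.49, FDR 0.00587). Of 11 translation factors, 1 rose (9.09%, against 10.3% of all genes), the ribosome recycling factor Mrrf (1.27, FDR 0.00818). Of 28 assembly factors, 3 rose (10.7%) and 1 fell (3.57%). Ndufaf1, for complex I, rose by 1.46 (FDR 0.00500), Atpaf1 and Tmem70, both for ATP synthase, by 1.87 (FDR 0.00568) and 1.12 (FDR 0.00951), while Surf1, for cytochrome c oxidase, fell (-1.81, FDR 0.00293). Of 77 mitochondrial ribosomal proteins, 1 rose (1.3%), Mrps10 (1.44, FDR 0.00338), and 9 fell (11.7%). Those that fell were led by Mrps23 (-2.90, FDR 0.000928), Mrpl15 (-1.66, FDR 0.00217) and Mrps6 (-1.85, FDR 0.00454). Of 14 markers of mitochondrial mass, such as matrix enzymes and outer membrane proteins, none passed in edgeR, 1 was higher and 5 were lower at an unadjusted p under 0.05, and DESeq2 called 0 higher and 3 lower. Their median log2 fold change was -0.24, and -0.21 without lab rat 3.

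Other cell types were checked by marker sums. The 8 leukocyte markers in the files summed to between 8.01 and 22.1 CPM in the woodrats and between 35.1 and 70.2 CPM in the lab rats, with Lyz2 not listed, and 3 of 5 tested were called lower in woodrats. The 3 erythroid markers in the files summed to between 11.96 and 35.9 CPM in the woodrats and between 253 and 497 CPM in the lab rats, and 3 of 3 were called lower. Of 15 squamous markers, 1 was called higher and 2 were called lower, and of 6 striated muscle markers tested, 1 was called higher and 0 lower, with 2 higher and 3 lower at an unadjusted p under 0.05 and 2 called in each direction by DESeq2. Of 2 gastric gland markers tested, 1 was called higher (50%, against 10.3% of all genes). It was Muc5ac, with 17, 12 and 33 reads in the woodrats and 0 in each lab rat (log2 fold change 7.32, FDR 0.00305). The other, Atp4a, was lower in every woodrat than in every lab rat and did not pass (-0.51, FDR 0.216). Gast, not tested, had 3, 2 and 3 reads in the woodrats and 0 in each lab rat. The part of these cells in the members' levels was not tested.

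The genes whose log2 CPM followed the log2 of the members' summed CPM most closely over the 6 animals were Atoh8, Tnfsf12, Npr2, Olfml3 and Hoxb2, with Pearson correlations of 0.997, 0.997, 0.997, 0.990 and 0.990. With only 6 animals that share libraries and depth, 402 of the genes tested had a correlation above 0.9. None of the 5 was called between species in edgeR, with FDR between 0.0422 and 0.104. Atoh8 was low, at 8.98, 4.72 and 1.90 CPM in woodrats 1, 2 and 3 and 1.61, 1.82 and 2.70 CPM in the lab rats. Its correlation rests on few reads. Npr2, a natriuretic peptide receptor, was measured at 32.4, 20.7 and 12.3 CPM in woodrats 1, 2 and 3 and at 10.7, 10.1 and 14.8 CPM in the lab rats, with the same order among the woodrats as the members.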

How the data were processed

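Counts were analysed for 6 foregut libraries, with species and replicate number taken from the sample labels. The authors used Trimmomatic to trim the reads, joined pairs that overlapped, aligned merged and remaining forward reads with cross_match (minimum score 50) to mouse coding transcripts of GENCODE release M7, left out 519 genes prone to multiple alignment, and deposited raw counts of uniquely assigned reads per mouse gene for each animal, without normalisation. The submitters' processing notes name the build mm9. A gene with few mouse-like stretches can lose reads in 1 species, so fold changes between species hold alignment as well as abundance. Each animal had 5439642 to 7932637 counted reads.

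The tables were merged by gene identifier (Python 3.11.15, pandas 2.3.3). A gene was tested where at least 3 animals reached 1 CPM, which left 12603 genes. The main test was the quasi-likelihood F-test of edgeR 4.0.16 (R 4.3.3) on TMM-scaled libraries, fitted to species alone with 0.125 as the prior count. P-values were adjusted by the Benjamini-Hochberg method over all 12603 genes, and an FDR below 0.01 made a call. SEs were obtained from the fold change and its F statistic. A second fit scaled each library to the summed reads of the members. The animals are separate individuals, 3 per species. Intervals and floors cover counting error only. On simulated counts the fits recovered 168 of 200 genes changed by 2 on the log2 scale (84%) after TMM and 154 (77%) after the second scaling, among 12603 genes, with 2 false calls each. The simulation gave every gene the same variation between animals and changed only genes above a minimum mean count. It drew the members independently and without a species difference, so its rates may not hold for the real libraries.

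The members and gene lists were chosen with earlier results of these data known. The text names all mitochondrial protein-coding genes, up to 3 called genes per direction with the lowest FDR from each nuclear list, 7 regulators, the 5 nuclear genes with the highest correlation with the members, and cell type markers. Alternatives were a filter at 5 CPM or none, DESeq2 size factors, total counts, TMM without mitochondrial genes, the method of edgeR 4, DESeq2 1.42.0, the replicate number as a block, an FDR below 0.05, other scalings and each animal left out. Scalings to the sum of all 11 mitochondrial genes and to the members without mt-Co1 were added after seeing the data.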

Additional observations from a re-analysis of the deposited data

How the results depend on the processing

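The direction of mt-Nd5, mt-Nd4 and mt-Nd2 held under all 15 alternatives, with log2 fold changes of 2.59 to 3.24, 1.66 to 2.14 and -2.35 to -1.84. mt-Nd5 stayed past the threshold of the alternative in 14 of 15, mt-Nd2 in 11 and mt-Nd4 in 9. These tallies include the main fit read at an FDR below 0.05, whose direction and pass were fixed in advance for called genes. Members called higher in woodrats numbered 0 to 2 and members called lower 0 to 1 when 1 animal was left out. The count of 0 called higher came without lab rat 1, where 2 members were higher and 1 was lower at an unadjusted p under 0.05. The spread between the highest and lowest member was 4.91 to 5.09 with 1 animal left out. Relative to the members' sum, 2 were called higher and 3 lower at an FDR below 0.05, and 0 to 1 in each direction with 1 animal left out. mt-Cytb ran from -0.086 (without woodrat 1) to 0.505 (without woodrat 3). Relative to the members' sum, mt-Co2 turned to 0.022 with the geometric mean, to 0.29 without mt-Co1 in the sum and to 0.055 without lab rat 3, and was as low as -0.185 without lab rat 2. The difference in the share of counted reads was 2.03 to 4.67 percentage points with 1 animal left out and 0.883 without mt-Co1. Calls among nuclear subunits numbered 2 at 5 CPM, 7 in DESeq2, 12 at an FDR below 0.05 and 0 to 3 with 1 animal left out. The median of the nuclear subunits, an alternative chosen after seeing the data, was -0.54 (without lab rat 1) to 0.0084 (without lab rat 3) with 1 animal left out. Calls among the machinery numbered 44 in DESeq2, 55 at an FDR below 0.05 and 4 to 15 with 1 animal left out.

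With the replicate number as a block, 1 member was called higher (mt-Nd5) and 0 lower, with 2 higher and 1 lower at an unadjusted p under 0.05. Under the same block and relative to the members' sum, 0 were called higher and 0 lower, with 2 higher and 3 lower at an unadjusted p under 0.05. Blocked calls numbered 0 among nuclear subunits and 2 among the machinery. Deviations of animals with the same number from their species means correlated at -0.289, -0.0881 and -0.279. Animals with unlike numbers were not compared, so these values cannot show whether a number stands for a shared step. Every member had at least 918 reads in every library.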
